A study of Mus musculus with 12 samples.

Results

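Transcripts MGP_FVBNJ_T0002472.1 and MGP_FVBNJ_T0002475.1 (T0002472.1 and T0002475.1 below) are 2 of the 85565 transcript models quantified in every library of a mouse skin RNA sequencing series. They were chosen for their measured values, because their identifiers lie close together and their levels went opposite ways between groups, so those levels are given as a description and without a test. The 17 other listed models numbered from T0002465 to T0002485 serve as context. T0002465 and T0002466 are not listed in the tables used here. Nothing in the sources used here pairs these models with genes or with genome positions, so no gene is named, no sequence is printed, and close identifiers are not taken as close positions.

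PolyA RNA of whole back skin was sequenced in 3 libraries for each of 4 groups, all of FVB mice. UT WT mice were untreated, WT DMBA mice were wild type and received topical DMBA weekly for 6 weeks, and Tcrb-/- mice (labelled TCRbko) received the same carcinogen. Tcrb-/- + Treg mice were Tcrb-/- recipients given Tregs of WT donors by intravenous transfer before the same DMBA course. The study's methods describe these as CD3+CD4+CD25+ cells from spleen. Its figure legend for this experiment instead gives CD3+CD4+CD25hi cells from spleen and lymph nodes. The recorded DMBA dose was 200 ng in all DMBA-treated libraries. No Tcrb-/- group without DMBA is part of these data, so loss of Tcrb is seen only under carcinogen and the carcinogen effect only in WT skin. The WT DMBA libraries carry DMBA in their titles but a naive entry in their treatment field, and were grouped by title. Per the study's methods the mice were age-matched females and the deletion had been backcrossed to FVB/N. Whether the libraries of a group are different animals is not given, and p-values then measure only the spread between these libraries, which may be technical. A library held between 17312566 and 31701620 estimated reads.

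The product of Tcrb is the T cell receptor β chain. αβ T cells need it, whereas γδ T cells assemble their receptor from other chains and persist without it. Mouse skin holds both kinds, with γδ T cells resident in the epidermis and Tregs, a subset of αβ T cells, mainly in the dermis around hair follicles. DMBA is a polycyclic aromatic hydrocarbon that skin enzymes convert to a form that binds DNA. Salmon, the program that made the values, assigns each read to the transcript models it matches. A read that matches several models is divided between them by an iterative estimate, so an estimated read number can hold a fraction, and reads can move wholesale from one similar model to another. Such movement would make one model go down as another goes up with their sum unchanged, which is the question put to the pair here. Whether fewer cells of a type or less RNA per cell lies behind a lower level cannot be told apart in whole skin.

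T0002472.1 is 3787 nt long, with an effective length (the length open to read starts, as estimated by Salmon) of 3485 to 3628 nt over the libraries. It had 795, 919 and 676 estimated reads in UT WT replicates 1 to 3 and 10, 18 and 11 in the WT DMBA replicates. Tcrb-/- replicates 1 to 3 had 315, 559 and 752 reads, and Tcrb-/- + Treg replicates had 19, 57 and 55. It was thus abundant in untreated WT skin and in carcinogen-treated Tcrb-/- skin and scarce in the other groups. As CPM (estimated reads per 1000000 of the library) the group means were 32.1 ± 4.04 (SD, n = 3) in UT WT, 0.696 ± 0.299 (SD, n = 3) in WT DMBA, 24.9 ± 9.62 (SD, n = 3) in Tcrb-/- and 1.93 ± 0.980 (SD, n = 3) in Tcrb-/- + Treg. UT WT and Tcrb-/- libraries overlapped, and so did WT DMBA and Tcrb-/- + Treg libraries. The lowest library of the first pair of groups, at 14.3 CPM, was 5.33 times the highest of the other pair, at 2.68 CPM.

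For T0002472.1, as for T0002475.1 below, fold differences and standard errors describe values by which it was chosen and are no test. The mean CPM of T0002472.1 was 46.2-fold lower in WT DMBA than in UT WT. It was 35.9-fold higher in Tcrb-/- than in WT DMBA, and 12.9-fold lower in Tcrb-/- + Treg than in Tcrb-/-. In the fit of all transcripts by edgeR these were log2 fold changes of -5.50 (standard error 0.53), 5.24 (0.52) and -3.60 (0.47). The mean in Tcrb-/- + Treg was 2.77 times that in WT DMBA, with overlapping libraries and a log2 fold change of 1.64 (0.47). Between groups, libraries did not overlap for 19.5% of the 54539 transcripts tested in WT DMBA against UT WT, 13.9% in Tcrb-/- against WT DMBA, 11.5% in Tcrb-/- + Treg against Tcrb-/- and 21.8% in Tcrb-/- + Treg against WT DMBA. A lack of overlap was thus common among transcripts at large, and nothing is read from it here.

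T0002475.1 is 641 nt long, with an effective length of 423 to 495 nt. UT WT replicates 1 to 3 had 976, 1331 and 800 estimated reads, and the WT DMBA replicates 1073, 1365 and 1384. All 3 Tcrb-/- libraries had 0, and Tcrb-/- + Treg replicates had 20, 14 and 11. The transcript was abundant in both WT groups, listed at 0 without Tcrb and present at a low level after Treg transfer. Means were 41.1 ± 4.40 CPM (SD, n = 3) in UT WT, 66.8 ± 10.6 CPM (SD, n = 3) in WT DMBA and 0.653 ± 0.182 CPM (SD, n = 3) in Tcrb-/- + Treg. No 2 of the 4 groups overlapped. A count of 0 still allows 3 reads per library, or 0.132 to 0.148 CPM in the Tcrb-/- libraries, and the lowest Tcrb-/- + Treg library was at 0.537 CPM. This allowance covers counting error only.

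T0002475.1 was 1.63-fold higher in WT DMBA than in UT WT, a log2 fold change of 0.72 (standard error 0.22 in the edgeR fit). Between carcinogen-treated skin with transferred Tregs and that of WT mice it was 102-fold lower, a log2 fold change of -6.48 (standard error 0.28), and against UT WT it was 62.9-fold lower. Against the 3-read floor it was at least 482-fold lower in Tcrb-/- than in WT DMBA. The like bound against UT WT, which differs in carcinogen too, was 296.66-fold. By TPM, which divides reads by effective length and scales them to a fixed total, T0002475.1 ranked between 562 and 1216 among the transcripts of each WT library and between 19243 and 23320 in the Tcrb-/- + Treg libraries. T0002472.1 ranked between 8594 and 14216 in UT WT and Tcrb-/- libraries and between 26559 and 39934 in the others. Per length, T0002475.1 was therefore the more abundant of the pair wherever it was detected, with 124 ± 12.1 TPM (SD, n = 3) against 13.3 ± 1.48 TPM (SD, n = 3) in UT WT.

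**Figure D1:**
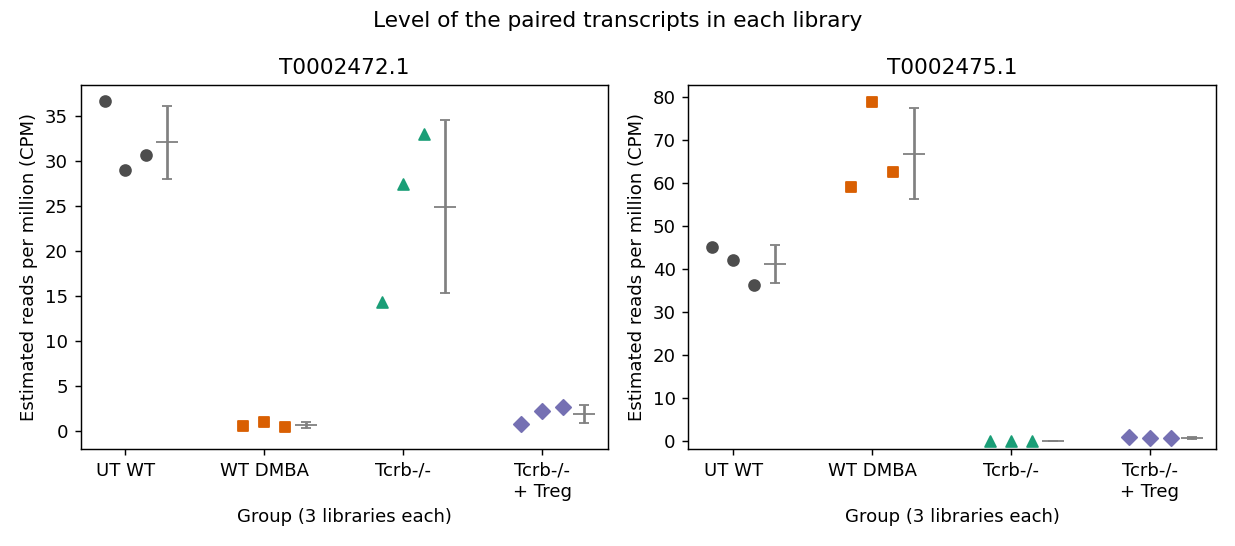
CPM (estimated reads per 1000000, y axis, linear and scaled separately per transcript) of T0002472.1 and T0002475.1 in the 4 groups (x axis), where each point is a library, replicates 1 to 3 running from left to right, and grey marks give the mean with its SD (n = 3). T0002472.1 is high in UT WT and Tcrb-/- libraries, from 14.3 CPM upwards, and at most 2.68 CPM elsewhere, whereas T0002475.1 is high in both WT groups, from 36.3 CPM upwards, and 0 in every Tcrb-/- library.

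As a sum, the pair did not keep a constant number of reads. Its summed level was 73.2 ± 7.58 CPM (SD, n = 3) in UT WT and 67.5 ± 10.9 CPM (SD, n = 3) in WT DMBA, with overlapping libraries. In WT skin alone the sum was thus close to level, at a ratio of 1.08, as T0002472.1 was lower by 31.4 CPM under DMBA and T0002475.1 higher by 25.7 CPM. That level sum holds for reads and not for TPM. Summed TPM was 137 ± 13.0 (SD, n = 3) in UT WT and 195 ± 24.3 (SD, n = 3) in WT DMBA, and no libraries overlapped.

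In the Tcrb-/- groups the sum was not kept on either scale. Tcrb-/- skin had 24.9 ± 9.62 CPM (SD, n = 3) for the pair, all of it T0002472.1, which is 2.71-fold lower than WT DMBA and 2.94-fold lower than UT WT. T0002472.1 averaged 24.9 CPM in Tcrb-/- skin and 32.1 CPM in UT WT skin, where both members were present. These groups differ in genotype and in carcinogen, and their libraries overlapped for T0002472.1. Whether reads moved between the members was not tested. After Treg transfer both members were low together. The pair had 39 reads in replicate 1, 71 in replicate 2 and 66 in replicate 3 of that group, or 2.58 ± 0.800 CPM (SD, n = 3). That sum is 26.2-fold lower than in WT DMBA and 9.67-fold lower than in Tcrb-/-. Every library of UT WT and WT DMBA lay above every library of Tcrb-/-, and these above every library of Tcrb-/- + Treg.

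**Figure D2:**
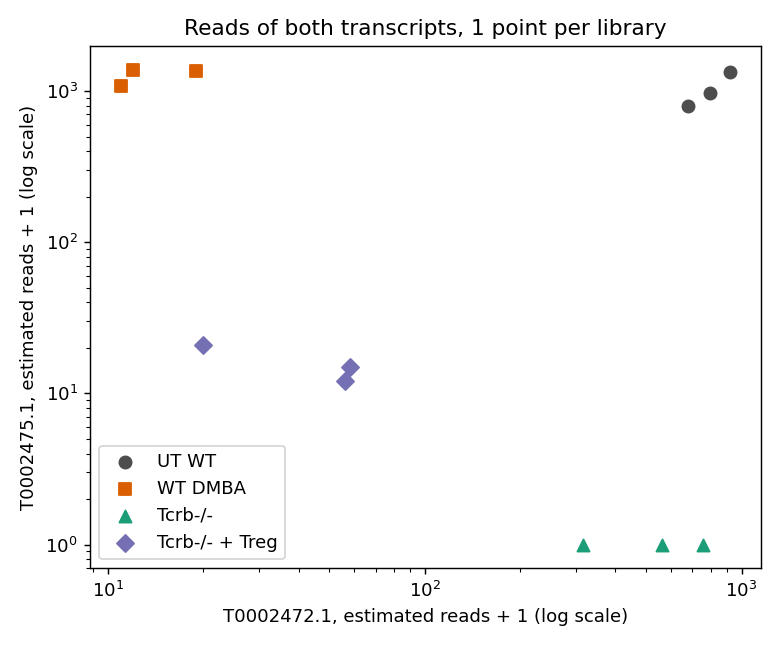
Estimated reads plus 1 of T0002472.1 (x axis, log scale) and T0002475.1 (y axis, log scale), with 1 point per library and a symbol for each of the 4 groups. The groups lie in separate corners, with both members high in UT WT, T0002475.1 alone high in WT DMBA, T0002472.1 alone high in Tcrb-/- and both low in Tcrb-/- + Treg.

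The share of the pair's reads that T0002475.1 took shows the same values from another side. UT WT libraries had 54.2% to 59.2%, WT DMBA libraries 98.7% to 99.2% and Tcrb-/- libraries 0%. In Tcrb-/- + Treg it was 51.3% in replicate 1, 19.7% in replicate 2 and 16.7% in replicate 3, on few reads. By TPM the shares were 89.6% to 91.3%, 99.8% to 99.9%, 0% and 59.9% to 88.7% in the same order of groups. Over the 12 libraries the members correlated at a Pearson r of -0.28 on log2(CPM + 0.1), which stood at rank 26651 of 33270 transcripts with a mean of 10 or more reads, counted from the most alike. These libraries share groups and are not independent points, so r is a description.

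An estimate that is not a whole number marks reads that were divided. In 0 of the 12 libraries were both members fractional (tolerance 0.002 reads). T0002472.1 had a fractional estimate in 4 libraries and T0002475.1 in 3, all of them WT DMBA and none of them among those 4. The estimate of T0002475.1 was never more than 0.038 reads from a whole number. No listed transcript of the whole table added to a whole number with either member in 3 or more libraries in which both were fractional and without exception. A single transcript did so with T0002472.1 in 2 libraries, from which nothing is read. Reads divided among 3 or more models would not be seen in these sums, and neither would reads given whole to one of several models.

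Other pairs in the range behaved differently in these respects. T0002473.1, of 909 nt, and T0002474.1, of 413 nt, had fractional estimates together in 8 libraries, and in all 8 their sum was a whole number. In UT WT replicate 1, for example, 48.7 and 13.3 reads added to 62. Their sum was 44 to 100 reads in UT WT, 116 to 139 in WT DMBA, 40 to 73 in Tcrb-/- and 8 to 31 in Tcrb-/- + Treg. The summed level was 2.67 ± 0.601 CPM (SD, n = 3) in UT WT, 6.49 ± 0.282 CPM (SD, n = 3) in WT DMBA, 2.64 ± 0.894 CPM (SD, n = 3) in Tcrb-/- and 0.774 ± 0.431 CPM (SD, n = 3) in Tcrb-/- + Treg. WT DMBA libraries lay above all others and Tcrb-/- + Treg libraries below all others.

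T0002467.1 and T0002468.1, of 927 and 924 nt, were never both above 0 in a library. UT WT replicate 1 had 527 reads on T0002468.1 and 0 on T0002467.1, whereas replicates 2 and 3 of the same group had 653 and 365 reads on T0002467.1 and 0 on T0002468.1. Tcrb-/- replicate 3, with 201 reads on T0002467.1, likewise differed from replicates 1 and 2, with 96.8 and 99 reads on T0002468.1. In every WT DMBA and Tcrb-/- + Treg library only T0002468.1 was above 0, at 12 to 44 and 16 to 29 reads. Summed, the level of these models was 20.5 ± 3.87 CPM (SD, n = 3) in UT WT, 1.31 ± 0.982 CPM (SD, n = 3) in WT DMBA, 6.03 ± 2.43 CPM (SD, n = 3) in Tcrb-/- and 0.934 ± 0.416 CPM (SD, n = 3) in Tcrb-/- + Treg. UT WT libraries lay above all others and Tcrb-/- libraries, at 4.40 to 8.83 CPM, above those of the remaining groups, which overlapped. Which of these models was above 0 thus differed between replicates of 1 group. For T0002472.1 and T0002475.1 the same member or members were above 0 in all 3 replicates of every group. These members were chosen for levels that differ between groups, which favours such likeness of replicates, so nothing is read from it. Whether reads were exchanged between models, within or between groups, was not tested in either case. These 2 context pairs were singled out after their values were seen and were not tested as sums.

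**Figure D3:**
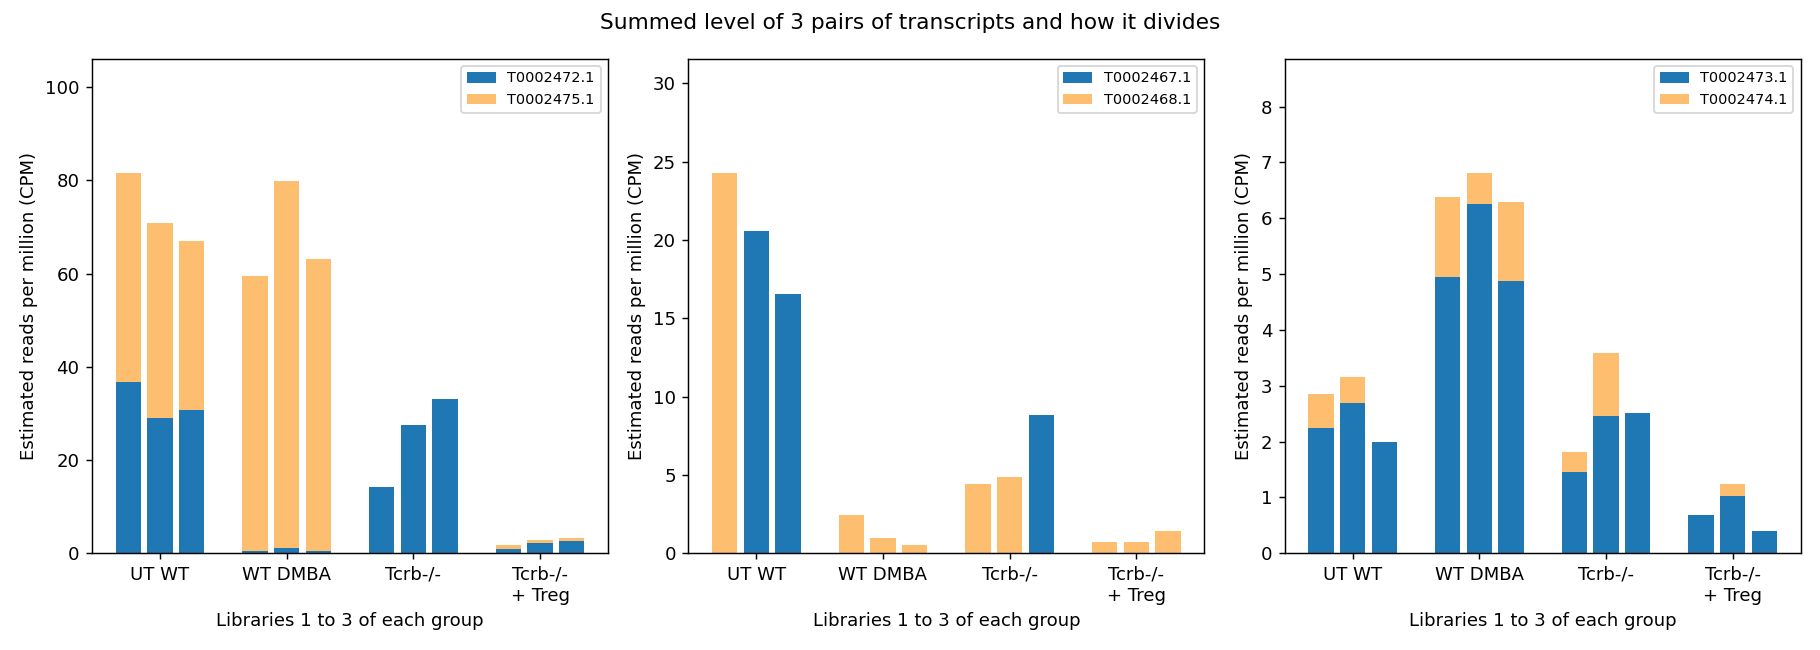
CPM (y axis, linear, a separate scale for each panel) of 3 pairs of transcripts, stacked in 1 bar per library for replicates 1 to 3 of each group (x axis). In the left panel the sum of T0002472.1 and T0002475.1 differs between groups, in the middle panel T0002467.1 and T0002468.1 exchange places between replicates of UT WT and of Tcrb-/-, and in the right panel T0002473.1 and T0002474.1 divide whole-number sums.

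T0002471.1, of 985 nt, was the context transcript most like a member. It had 101, 62 and 71 reads in UT WT replicates 1 to 3, 6, 9 and 7 in WT DMBA, 72, 100 and 95 in Tcrb-/- and 9, 16 and 15 in Tcrb-/- + Treg, whole numbers throughout. These are the same high and low groups as for T0002472.1, without overlap between them. Its Pearson r with T0002472.1 was 0.97 over the 12 libraries, the highest of all 33270 transcripts compared, and by Spearman it ranked 2. The next most alike by Pearson was T0069115.1 (r = 0.91), whose group means lay only between 68.0 and 80.7 CPM, and the most opposite was T0052009.1 (r = -0.97), with 1.81 ± 0.510 CPM (SD, n = 3) in WT DMBA, 0.970 ± 0.556 CPM (SD, n = 3) in Tcrb-/- + Treg and at most 3.45 reads in any other library. Among the 54539 tested transcripts, 24 had every UT WT and Tcrb-/- library above every WT DMBA and Tcrb-/- + Treg library, with the latter above 0 in at least 1 library. T0002472.1 was the 1 transcript among them with a gap of at least 4-fold, by a criterion set after its values were seen.

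**Figure D4:**
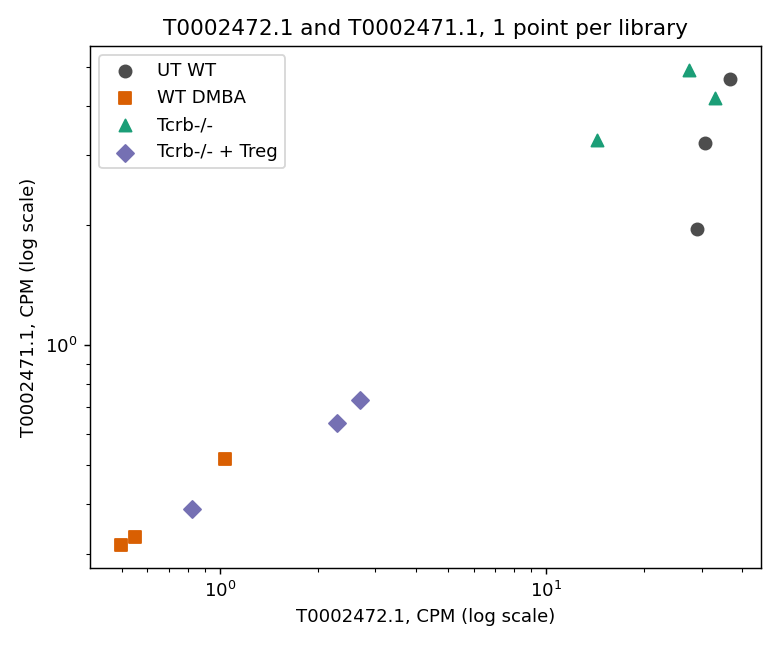
CPM of T0002472.1 (x axis, log scale) and T0002471.1 (y axis, log scale), with 1 point per library and a symbol for each of the 4 groups. UT WT and Tcrb-/- libraries lie together at 14.3 CPM or more of T0002472.1 and 1.96 CPM or more of T0002471.1, and WT DMBA and Tcrb-/- + Treg libraries lie together at no more than 2.68 and 0.732 CPM.

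For T0002475.1 the most alike transcripts were T0020322.1 (r = 0.95), of 3009 nt, and T0089571.1 (r = 0.94), of 2947 nt, and their group means lay much closer together. T0020322.1 had 45.3 ± 3.22 CPM (SD, n = 3) in UT WT, 42.0 ± 2.40 CPM (SD, n = 3) in WT DMBA, 23.8 ± 2.80 CPM (SD, n = 3) in Tcrb-/- and 28.4 ± 1.85 CPM (SD, n = 3) in Tcrb-/- + Treg. The most opposite, T0066331.1 (r = -0.92), had 32.7 to 74.8 reads in Tcrb-/-, 13.7 to 68.3 in Tcrb-/- + Treg and 0 in every WT DMBA library. With a pseudocount of 1, or by Spearman, other transcripts were the most alike, so the choice depends on the pseudocount and on the measure. By presence alone, 14 transcripts of the table had 10 or more reads in every WT library and 0 in every Tcrb-/- library, T0002475.1 among them. Of these, 6 had at least 1 read in every Tcrb-/- + Treg library. That count, too, was set after the values were seen.

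Of the 17 context transcripts, 6 had enough reads to be tested (10 or more summed over the 12 libraries). By edgeR's quasi-likelihood test 0 of these 6 passed an adjusted p of 0.01 with a fold change above 2 in any of the 4 comparisons. The share of all 54539 tested transcripts called was 0.231% in WT DMBA against UT WT, 0.00367% in Tcrb-/- against WT DMBA, 0.0147% in Tcrb-/- + Treg against Tcrb-/- and 0.396% in Tcrb-/- + Treg against WT DMBA. At an unadjusted p under 0.05, edgeR passed 3, 3, 2 and 1 of the 6 in the same order, and 11.4%, 6.7%, 6.97% and 14% of all tested transcripts. DESeq2, which made more calls throughout, called 2, 2, 3 and 1 of the 6 and 2.25%, 0.768%, 1.38% and 3.67% of all. After edgeR's filterByExpr, a stricter filter on low counts, 1 context transcript, T0002473.1, was called in Tcrb-/- + Treg against WT DMBA, beside 1.05% of the 37197 transcripts then tested.

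Among the context transcripts T0002471.1 had the smallest adjusted p in all comparisons but Tcrb-/- + Treg against WT DMBA, where T0002473.1 had it. The log2 fold change of T0002471.1 was -3.04 (standard error 0.54, edgeR adjusted p = 0.0257) in WT DMBA against UT WT and 3.48 (0.55, edgeR adjusted p = 0.190) in Tcrb-/- against WT DMBA. In Tcrb-/- + Treg against Tcrb-/- it was -2.72 (0.53, edgeR adjusted p = 0.0869). DESeq2 called it in these 3 comparisons, in the same directions. T0002473.1 was lower in Tcrb-/- + Treg than in WT DMBA by a log2 fold change of -2.73 (0.48, edgeR adjusted p = 0.0164), and DESeq2 called it there and against Tcrb-/-. T0002467.1, the model at 0 in most libraries, was called by DESeq2 alone, in 3 comparisons, where the libraries of its own group that had it at 0 had reads on T0002468.1.

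Summed over all 17 context transcripts, the level was 26.5 ± 5.12 CPM (SD, n = 3) in UT WT, 8.20 ± 0.998 CPM (SD, n = 3) in WT DMBA, 13.3 ± 3.43 CPM (SD, n = 3) in Tcrb-/- and 2.34 ± 0.504 CPM (SD, n = 3) in Tcrb-/- + Treg. By CPM, libraries overlapped in none of the 4 comparisons, and nothing is read from that here either. The exact two-sided permutation test on CPM returned p = 0.1 each time, which is its minimum with 3 libraries a group. After Benjamini-Hochberg adjustment over the 4 comparisons it was 0.1. By TPM, libraries were not fully apart in Tcrb-/- against WT DMBA. The log2 ratio there was 0.48 by TPM (exact permutation test, p = 0.3) and 0.70 by CPM. The sum was lowest in Tcrb-/- + Treg skin, where the sum of the pair was lowest too, although T0002471.1 and T0002469.1 by themselves had their lowest means in WT DMBA skin.

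The remaining 10 context transcripts had 0 reads in every library and are very short. T0002476.1 to T0002480.1 are 11, 9, 16, 12 and 14 nt long and T0002481.1 to T0002485.1 are 51 to 61 nt, with effective lengths of 4 to 15 nt. Models this short leave little or no room for a sequencing read, so 0 there says nothing of expression. T0002470.1, of 647 nt, had 1.25 reads in 1 library, and T0002469.1, of 519 nt, at most 22.9 reads.

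For comparison of lengths alone, GENCODE release M21, which annotates the C57BL/6J reference and not FVB/NJ, lists 22 transcripts of 9 to 16 nt. Of these, 12 are D segments, the short pieces that T cell receptor and immunoglobulin genes join during lymphocyte development. The lengths of all 4 T cell receptor D segments in that annotation occur among T0002476.1 to T0002480.1. Of its 10 T cell receptor constant region transcripts, the lengths 413, 924 and 985 nt occur among the context models, each also found in 50 to 124 GENCODE transcripts in all. Neither 3787 nor 641 nt, the lengths of the 2 members, is exactly that of any T cell receptor or immunoglobulin transcript there. Constant region transcripts of near lengths are listed, Trdc at 3865 nt for T0002472.1, and Tcrg-C3 at 648 nt and Trbc2 at 692 nt for T0002475.1. The lack of an exact match therefore does not set the members apart from such transcripts. Near lengths do not link them either, since no window was set and other GENCODE transcripts as near were not counted. At exactly 3787 and 641 nt, GENCODE lists 9 and 131 transcripts. Strains differ in their models and length does not identify a transcript, so no model was assigned to a gene on these grounds.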

How the data were processed

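The authors mapped reads to the FVB/NJ cDNA set of Ensembl with Salmon 1.5.2. The deposited tables, 1 per library, give for each transcript an estimated count of reads, not normalized, a TPM value scaled by Salmon, a length and an effective length. The authors' later sums over genes are not part of these files. Libraries held between 17312566 and 31701620 estimated reads, and replicates differed by more than sampling noise (chi-square of 21.8 to 108 per transcript), so none was merged.

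CPM was the estimated count divided by the library total. For tests, estimated counts were rounded, transcripts under 10 reads over all libraries were left out, and 54539 were fitted over all 12 libraries in R 4.3.3 with edgeR 4.0.16 (TMM, quasi-likelihood F test, Benjamini-Hochberg adjustment, called at an adjusted p under 0.01 and over 2-fold). The code was run on simulated counts, but the share of planted changes found is not given here. That run is therefore no measure of power, and few calls can reflect low power. The ratio of a log2 fold change to the square root of its F statistic gave its standard error. DESeq2 1.42.0 was an alternative, as were other scalings, filters, effective-length offsets, the replicate number as a block and leaving out each library. Exact permutation tests used scipy 1.17.1. Where a group was at 0, folds are bounds against 3 reads per library.

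The members and the context range were chosen with earlier results of these data known. Named transcripts are the members, context transcripts that are called, highest or divide reads with another, and those most like or most opposite to a member. The others named in the range were chosen after their values were seen. No table used here pairs the transcripts with genes, so the targeted gene and tissue markers could not be looked up.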

Additional observations from a re-analysis of the deposited data

How the results depend on the processing

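The count of 0 context transcripts called by edgeR stayed at 0 in all 4 comparisons with DESeq2 size factors, without a filter, with effective-length offsets, with only the groups compared and without each library in turn. Calls over all transcripts were few in these settings, so this 0 is not read as stability. With only the groups compared, edgeR called 37 higher and 28 lower of 48611 transcripts in WT DMBA against UT WT. In the remaining comparisons it then called 0 of 47632, 47289 and 47367. With edgeR's filterByExpr the count of context transcripts called was 1, T0002473.1 in Tcrb-/- + Treg against WT DMBA, where fewer transcripts were tested. By DESeq2 it was 2, 2, 3 and 1 in the order given above, beside 2.25%, 0.768%, 1.38% and 3.67% of all tested transcripts. The cause was not tested.

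The level of the pair depends on the unit, since TPM divides by lengths that differ between the members. By TPM the summed pair was higher in WT DMBA than in UT WT, by 0.51 on the log2 scale, where by CPM it was -0.12 (-0.26 to -0.03 without 1 library). In Tcrb-/- against WT DMBA, Tcrb-/- + Treg against Tcrb-/- and Tcrb-/- + Treg against WT DMBA it was -4.38, -1.88 and -6.25 by TPM and -1.44, -3.27 and -4.71 by CPM. The mean share of T0002475.1 was 90.3%, 99.9% and 71.2% by TPM in UT WT, WT DMBA and Tcrb-/- + Treg, and 56.2%, 99.0% and 29.2% by reads (18.2% to 35.5% without 1 library in Tcrb-/- + Treg, where replicate 1 held the highest share). The fitted log2 fold changes of the members kept their direction in every setting. DESeq2 gave -12.85 and 6.32 for T0002475.1 in the comparisons with Tcrb-/-, a group at 0, where fits depend on the tool's handling of 0 and are no bounds.

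Whether replicate numbers pair the libraries is not given. Deviations of same-numbered libraries correlated at -0.041 to 0.059, and those of differently numbered libraries at -0.063 to 0.057. No pairing was seen, but with 3 libraries a group this cannot exclude one. With the replicate number as a block, 0 context transcripts were called, calls over all transcripts in WT DMBA against UT WT went from 88 higher and 38 lower to 11 and 7, and T0002472.1 had a log2 fold change of -5.59 in WT DMBA against UT WT. Depth limits T0002475.1 in Tcrb-/- + Treg and T0002472.1 in WT DMBA, at 10 to 20 reads per library.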
